A study of Danio rerio with 16 samples.

Results

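The genes described are 6 keratins (krt5, krt18a.1, krt15, krt94, krt99 and krt1-19d) and 2 further genes of skin and secretory epithelia, agr2 and icn. Every probe set whose only annotated symbol is one of these 8 genes was taken, which gave 10 of the 15502 probe sets tested and 8 of the 8793 genes with a single symbol. Of the 8 genes, 6 had a probe set each, and krt1-19d and icn had 2 each. No filter on dim values was used, so every member is reported. The members were selected on their differences between mutants and wild types in these same arrays, so their genotype differences are given as a description, with no p, and counts of members past a threshold on those differences show only what was chosen.

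RNA came from whole dechorionated zebrafish embryos kept in embryo medium. The groups were rad21 mutants at 24 hours post-fertilization (hpf), wild types at 24 hpf, rad21 mutants at 48 hpf and wild types at 48 hpf. The mutants were homozygous for rad21nz171, an allele of the gene for the kleisin subunit of cohesin, the ring complex that holds sister chromatids together, and no treatment was added in any group. Each group had 4 pools of 50 embryos, described as biological replicates and each hybridized to an Affymetrix array, which gave 16 arrays. Values are log2 probe set intensities. The levels of different probe sets were not ranked against each other, and a summed intensity of a gene list serves only to compare the same sum between groups.

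Keratins form the intermediate filaments of epithelial cells. A filament is built from pairs of an acidic type I and a basic type II keratin, and different pairs mark different epithelial layers and stages. The skin of a zebrafish embryo has an outer layer, the periderm, over basal cells, with mucous cells and ionocytes (ion-transporting cells) set among them. The protein encoded by agr2 is a disulfide isomerase of the endoplasmic reticulum that is needed for mucin production in mouse intestine. Ictacalcin, the product of icn, is a small calcium-binding protein of the S100 type known from fish skin. It is not known as a secreted product, so the word secretory applies to agr2 alone among the 8 genes.

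The arrays matched their genotype labels: rad21a read 6.58 to 7.06 in mutants against 10.09 to 10.55 in wild types at 24 hpf, and 5.92 to 6.72 in mutants against 10.06 to 10.48 in wild types at 48 hpf. The arrays least correlated with the rest of their group were mutant replicate 4 of 48 hpf (0.983), replicate 1 of the 24 hpf wild types (0.985) and replicate 3 of the 48 hpf wild types (0.986). Leaving these 3 arrays out together turned the direction of no member's change; at 24 hpf the log2 change of krt1-19d was then 0.30 and that of krt94 was 0.21, both without a call in the full fit. The 3'-minus-5' log2 difference of the muscle actin control, a sign of RNA quality, was 3.567 to 3.781 in mutants and 3.029 to 3.15 in wild types at 24 hpf, and 3.389 to 4.077 in mutants and 2.409 to 2.814 in wild types at 48 hpf. It moved with genotype, and its part in the values below was not tested. The same difference for GAPDH overlapped between genotypes, at 0.428 to 0.601 in mutants and 0.287 to 0.586 in wild types at 24 hpf, and 0.579 to 0.655 in mutants and 0.546 to 0.63 in wild types at 48 hpf. Probe sets for 5 foreign sequences read 2.77 to 7.22 with a median of 4.66, so values in that range can hold background signal, and changes there may be understated. The range takes in krt15 outside the 48 hpf wild types, krt94 at 24 hpf and in part of the 48 hpf mutants, krt99 at 48 hpf and in part at 24 hpf, krt1-19d in 48 hpf wild types, and agr2 in 24 hpf mutants.

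**Figure D1:**
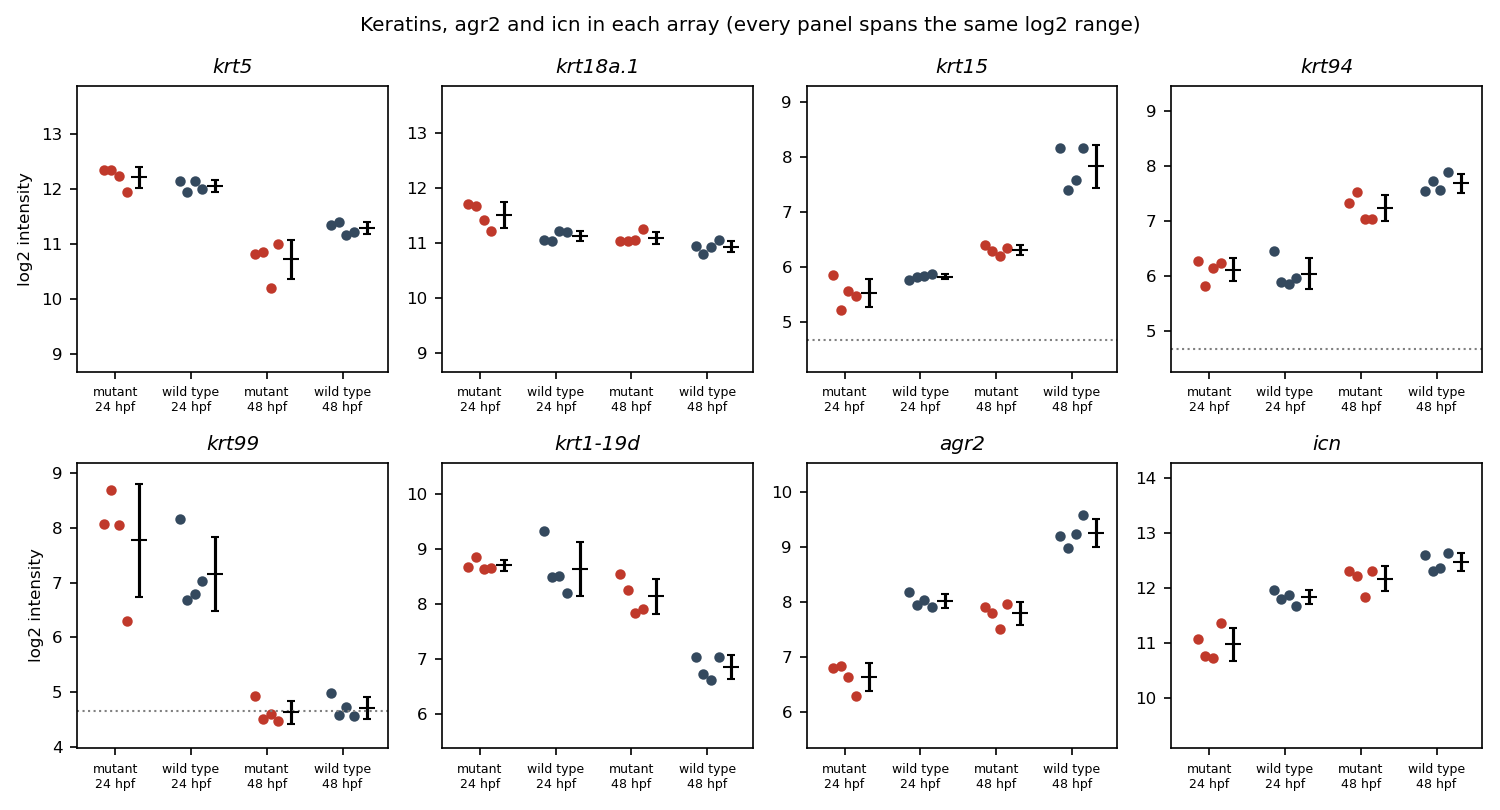
Log2 intensity of the 8 genes in each of the 16 arrays, with mutants (red) left of wild types (dark blue) at each age. Bars give the mean and SD of the 4 arrays, the dotted line marks the median of the foreign sequences (4.66), and agr2 lies lower in every mutant array than in every wild type array of its age.

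The type II keratin krt5, a marker of basal epidermal cells in mammals, was lower in mutants than in wild types at 48 hpf and overlapped at 24 hpf. At 24 hpf it read 12.34, 12.35, 12.22 and 11.93 in mutants, against 12.15, 11.93, 12.14 and 11.99 in wild types. The groups overlapped, and the log2 change was 0.16 ± 0.14 (SE). At 48 hpf it read 10.82, 10.85, 10.19 and 10.99 in mutants, against 11.35, 11.40, 11.16 and 11.22 in wild types. Every mutant array was below every wild type array, with a log2 change of -0.57 ± 0.14, or 1.48-fold lower. Mutant replicate 3 was the lowest of the 16 arrays. In RNA from whole embryos, fewer cells of a type and less RNA per cell cannot be told apart. The skin layer that holds the RNA of krt5, or of krt15 below, was not measured.

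The type I keratin krt18a.1, of the simple epithelium class, lay above its wild type level in 24 hpf mutants. It read 11.71, 11.68, 11.41 and 11.22 in mutants, against 11.05, 11.04, 11.22 and 11.20 in wild types. The lowest mutant array (11.223) was just above the highest wild type array (11.216), and the log2 change was 0.38 ± 0.11, or 1.3-fold higher. At 48 hpf the groups overlapped, with means of 11.09 ± 0.11 in mutants and 10.93 ± 0.10 in wild types (SD, n = 4 each) and a log2 change of 0.16 ± 0.11. In the gene order of RefSeq assembly GRCz12tu, krt5, krt8, krt18a.1 and krt18a.2 are neighbours. Their neighbour krt8, a type II keratin, changed by 0.00 ± 0.13 at 24 hpf and 0.09 ± 0.13 at 48 hpf, with limma adjusted p of 0.999 and 0.714.

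The type I keratin krt15, also a basal-layer keratin in mammals, was the keratin furthest below wild type at 48 hpf. It read 6.39, 6.30, 6.19 and 6.34 in mutants, against 8.15, 7.40, 7.59 and 8.16 in wild types. The groups were more than 1 log2 unit apart at their nearest arrays, and the log2 change was -1.52 ± 0.16, or 2.86-fold lower. At 24 hpf it read 5.85, 5.22, 5.56 and 5.47 in mutants, against 5.76, 5.81, 5.83 and 5.88 in wild types. Here 1 mutant array lay within the wild type range, and the log2 change was -0.29 ± 0.16.

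In the same RefSeq order krt99 lies beside krt15, and krt94 is separated from krt15 by krt98 (krt93, krt94, krt98, krt15, krt99). At 48 hpf krt94 read 7.33, 7.52, 7.03 and 7.03 in mutants, against 7.54, 7.73, 7.56 and 7.89 in wild types. The groups did not overlap, though mutant replicate 2 and wild type replicate 1 were nearly level, and the log2 change was -0.45 ± 0.15 (1.37-fold lower). At 24 hpf krt94 overlapped between genotypes (6.11 ± 0.21 in mutants and 6.04 ± 0.28 in wild types, SD, n = 4 each). The values of krt99 varied most at 24 hpf, with 8.06, 8.68, 8.04 and 6.30 in mutants, against 8.15, 6.67, 6.79 and 7.02 in wild types. Its 24 hpf log2 change of 0.61 ± 0.38 was 1.102 without mutant replicate 4, 0.31 without mutant replicate 2 and 0.94 without wild type replicate 1. At 48 hpf the change was -0.08 ± 0.38, and there it lay close to background in both genotypes (4.48 to 4.94 in mutants and 4.56 to 4.99 in wild types). The neighbour krt93 changed by 0.13 ± 0.12 and 0.09 ± 0.12 (limma adjusted p of 0.626 and 0.695), at a level near background.

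The type I keratin krt1-19d was the only described keratin above wild type with no overlap at 48 hpf. Its brighter probe set read 8.55, 8.26, 7.84 and 7.91 in mutants, against 7.04, 6.73, 6.62 and 7.04 in wild types. The log2 change was 1.28 ± 0.20, or 2.43-fold higher. The other probe set read 8.37, 7.99, 7.45 and 7.86 in mutants, against 6.45, 5.96, 6.29 and 6.44 in wild types, with a log2 change of 1.63 ± 0.23. At 24 hpf the brighter probe set read 8.67, 8.86, 8.64 and 8.67 in mutants, against 9.34, 8.5, 8.51 and 8.21 in wild types. The groups overlapped there because wild type replicate 1 was above every mutant array, and the log2 changes were 0.07 ± 0.20 and 0.20 ± 0.23.

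Across the 8 genes, 1 was called higher (krt18a.1) and 2 lower (agr2 and icn) in mutants at 24 hpf, a call being a limma adjusted p under 0.05. Among all probe sets 3.26% were called higher and 4.09% lower. At 48 hpf 1 gene was called higher (krt1-19d) and 4 lower (krt5, krt15, krt94 and agr2), against 8.76% and 6.81% of all probe sets. Groups did not overlap for 3 genes at 24 hpf and 5 at 48 hpf, where 14.6% and 17.8% of all probe sets did not overlap. The median log2 change of the 8 genes was 0.07 at 24 hpf and -0.38 at 48 hpf, beside 0.00 and 0.03 over all probe sets. Since the genes were chosen with these differences known, nothing is read from the counts. No member was called higher at 24 hpf in 7 of the 8 fits that left out a single array of that age, and 2 were in the other fit. At 48 hpf 3 members were called lower, not 4, in 7 of the 8 fits that left out a single array of that age. Of the 4, krt94 lay closest to the threshold in the full fit.

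The genotype difference itself changed between the ages for krt15, by -1.22 ± 0.22, and for krt1-19d, by 1.21 ± 0.28 (48 hpf minus 24 hpf). These were the 2 genes past the threshold for that change, of 8, beside 1.45% of all probe sets in either direction, and nothing is read from that count. No member was called for a higher difference at 48 hpf in 11 of the 16 fits that left out a single array, so the call of krt1-19d was lost there. For krt5 it changed by -0.73 ± 0.20, for krt94 by -0.53 ± 0.21, for icn by 0.54 ± 0.20 and for agr2 by -0.08 ± 0.20.

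**Figure D2:**
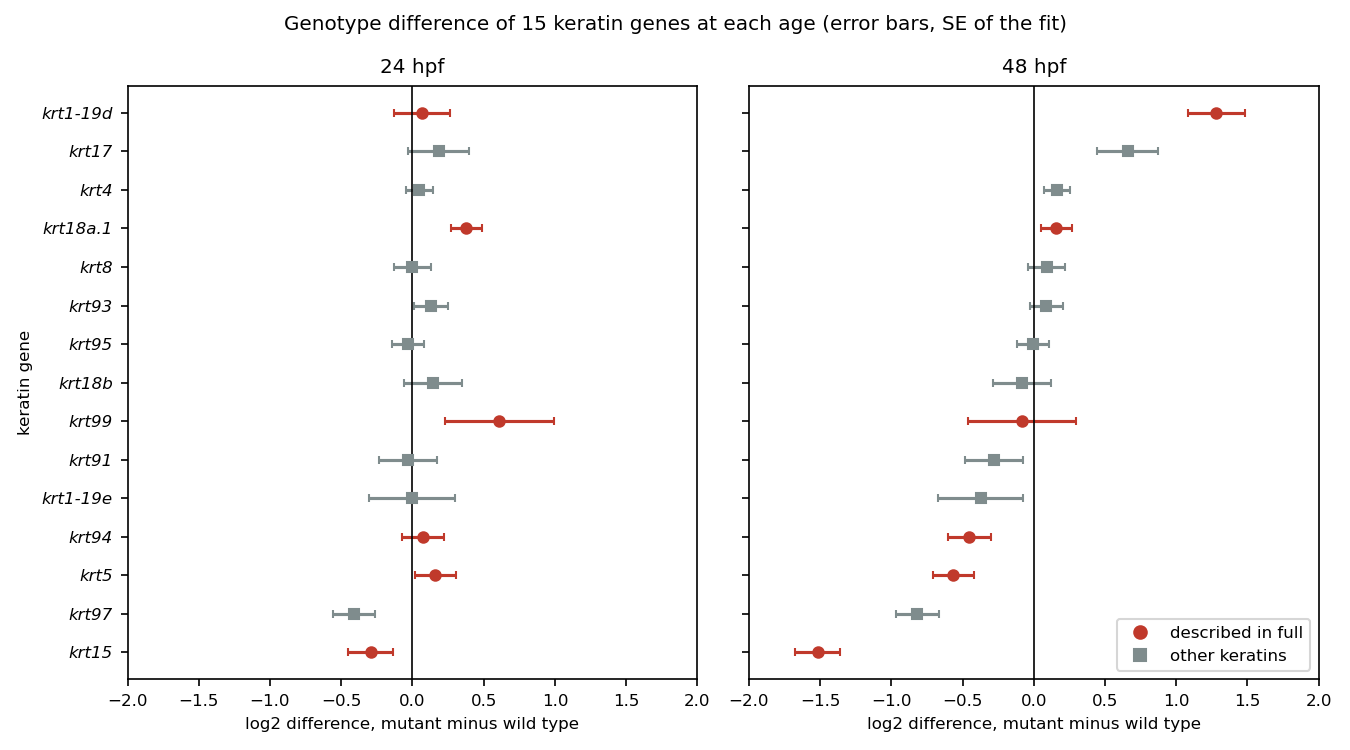
Log2 difference, mutant minus wild type, of 15 keratin genes at 24 hpf (left) and 48 hpf (right), with the SE of the fit; red circles are the 6 keratins described in full and grey squares the other 9. At 48 hpf the keratins lie on either side of 0, from -1.52 for krt15 to 1.28 for krt1-19d.

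The array measured 9 further keratins under their own symbols. None of these 9 passed limma's test at 24 hpf, and krt97 was the only one with an unadjusted p under 0.05 (0.0141). At 48 hpf krt17 was higher and krt97 lower, and 7 did not pass, where 8.76% of all probe sets were called higher and 6.81% lower. The median log2 change of the 9 was 0.00 at 24 hpf and -0.01 at 48 hpf. At 48 hpf krt97 read 10.97, 10.60, 10.13 and 10.55 in mutants, against 11.29, 11.24, 11.35 and 11.63 in wild types. The groups did not overlap (log2 change -0.82 ± 0.15, limma adjusted p = 0.00124). In the same embryos krt17, a type I keratin, read 11.31, 10.97, 10.22 and 10.48 in mutants, against 10.03, 10.12, 9.86 and 10.32 in wild types. Its groups overlapped (0.66 ± 0.22, limma adjusted p = 0.0467), and leaving out any of 5 arrays gave adjusted p of 0.0827 to 0.144. The summed intensity of the 9 was similar in range between genotypes, at 27974 to 34044 in mutants and 27929 to 34239 in wild types at 48 hpf. The gene krtcap2, whose symbol begins with krt but which is no keratin, was left out of this count.

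In the RefSeq order krt1-19d is followed by krt1-19e, krt92, cyt1l, cyt1, krt17 and krt91. Its neighbour krt1-19e changed by 0.00 ± 0.30 at 24 hpf and -0.37 ± 0.30 at 48 hpf (limma adjusted p of 0.999 and 0.464). The probe set shared by cyt1l and cyt1, type I keratins of the embryonic skin, changed by -0.07 and -0.04. Closely related keratins can share probe sequence, and probe sequences were not used here.

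**Figure D3:**
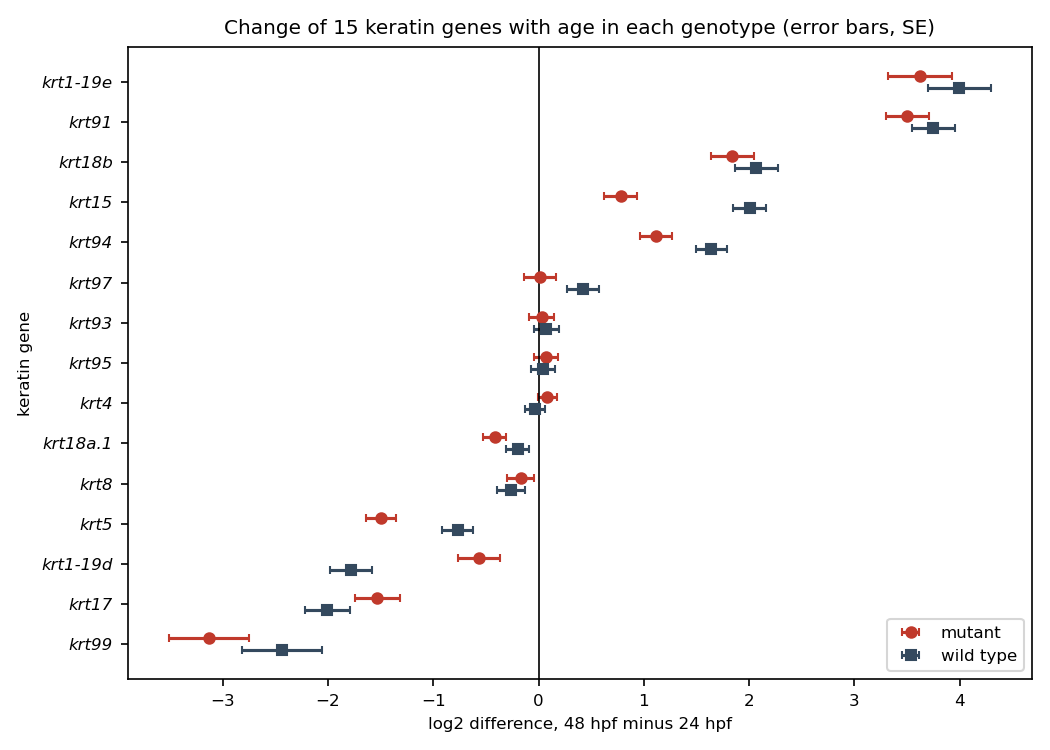
Log2 difference, 48 hpf minus 24 hpf, of the same 15 keratin genes in mutants (red circles, upper) and wild types (dark blue squares, lower), with the SE of the fit. The keratins run from krt99 (-3.13 in mutants and -2.44 in wild types) to krt1-19e (3.62 in mutants and 4.00 in wild types), and the genotypes are furthest apart for krt15 and krt1-19d.

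The change with age, averaged over the genotypes, is a separate contrast from the genotype differences. Leaving krt99 aside, it was called for the other 7 genes, higher at 48 hpf for 4 (krt15, krt94, agr2 and icn) and lower for 3 (krt5, krt18a.1 and krt1-19d). Among all probe sets 17.3% were called higher and 23.6% lower. The members were chosen with earlier results of these data known, which may include changes with age. Nothing is read from these counts, and the adjusted p of a member for age, here and below, is a description. By limma krt15 was 2.63-fold higher at 48 hpf (log2 change 1.39 ± 0.11, adjusted p = 4.4e-08) and krt94 2.6-fold higher (1.38 ± 0.11, adjusted p = 3.08e-08). By the same test krt5 was 2.19-fold lower (-1.13 ± 0.10, adjusted p = 1.86e-07) and krt1-19d 2.26-fold lower (-1.17 ± 0.14, adjusted p = 4.67e-06). The decline of krt18a.1 was smaller, 1.24-fold (-0.31 ± 0.08, adjusted p = 0.00363). The lower level of krt99 at 48 hpf, 6.9-fold (-2.79 ± 0.27), is given with no p because krt99 may have been chosen for it.

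Seen within each genotype, krt15 was 1.72-fold higher at 48 than at 24 hpf in mutants and 4.01-fold higher in wild types. For krt1-19d the decline was 1.48-fold in mutants and 3.44-fold in wild types. For krt5 it was 2.82-fold in mutants and 1.7-fold in wild types. Thus the wild type change with age was the larger of the pair for krt15 and krt1-19d, and the mutant change for krt5. Of the 9 other keratins, 3 were higher with age averaged over genotypes and 1 lower by limma: krt1-19e (3.81 ± 0.21, adjusted p = 5.92e-10), krt91 (3.63 ± 0.14, adjusted p = 1e-11), krt18b (1.96 ± 0.14, adjusted p = 1.84e-08) and krt17 (-1.77 ± 0.15, adjusted p = 1.1e-07).

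The isomerase gene agr2 was lower in mutants at each age. At 24 hpf it read 6.80, 6.84, 6.64 and 6.29 in mutants, against 8.19, 7.95, 8.04 and 7.91 in wild types. The log2 change was -1.38 ± 0.14, or 2.6-fold lower, and the groups were more than 1 log2 unit apart. At 48 hpf it read 7.92, 7.80, 7.51 and 7.97 in mutants, against 9.21, 8.99, 9.25 and 9.60 in wild types, a log2 change of -1.46 ± 0.14 (2.76-fold lower). The mutant level at 48 hpf (7.80 ± 0.21) overlapped the wild type level at 24 hpf (8.02 ± 0.12, SD, n = 4 each). With age agr2 was 2.3-fold higher averaged over the genotypes (SE of the log2 change 0.10, limma adjusted p = 8.55e-08), 2.23-fold in mutants and 2.37-fold in wild types.

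Of 45 other genes of mucous cells and the secretory pathway, 3 were higher and 0 lower in mutants at 24 hpf by limma, and 5 were higher and 2 lower at 48 hpf, with median log2 changes of 0.10 and 0.00. Over all probe sets 3.26% were called higher and 4.09% lower at 24 hpf, and 8.76% and 6.81% at 48 hpf. The gel-forming mucin gene muc5.1 read 4.16, 4.17, 3.99 and 3.81 in 48 hpf mutants, against 5.46, 5.17, 5.50 and 5.60 in wild types. Its mutant values lay below the background median (log2 change -1.40 ± 0.11, limma adjusted p = 2.02e-07). At 48 hpf kdelr2b, a retrieval receptor for endoplasmic reticulum proteins, was higher (0.49 ± 0.09, limma adjusted p = 0.00106), as were edem1 (0.56 ± 0.13, adjusted p = 0.00756) and copb1 (0.52 ± 0.13, adjusted p = 0.00948). At 24 hpf kdelr2b, erp44 and lman1 were higher by 0.34, 0.43 and 0.46, with limma adjusted p of 0.0274, 0.0388 and 0.0492, and each call was lost without any of 6 to 8 single arrays.

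The S100-type gene icn was lower in mutants at 24 hpf. Its brighter probe set read 11.06, 10.75, 10.73 and 11.37 in mutants, against 11.97, 11.80, 11.86 and 11.66 in wild types. No arrays overlapped, and the log2 change was -0.85 ± 0.14, or 1.8-fold lower. The other probe set gave 10.16, 10.06, 10.08 and 10.75 in mutants, against 11.42, 11.34, 11.29 and 11.07 in wild types, with a log2 change of -1.02 ± 0.21. At 48 hpf the brighter probe set read 12.31, 12.21, 11.83 and 12.30 in mutants, against 12.59, 12.30, 12.36 and 12.63 in wild types. The groups overlapped there, and the log2 changes were -0.31 ± 0.14 and -0.52 ± 0.21. With age icn was 1.89-fold higher averaged over the genotypes (limma adjusted p = 2.06e-06), 2.27-fold in mutants and 1.56-fold in wild types.

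**Figure D4:**
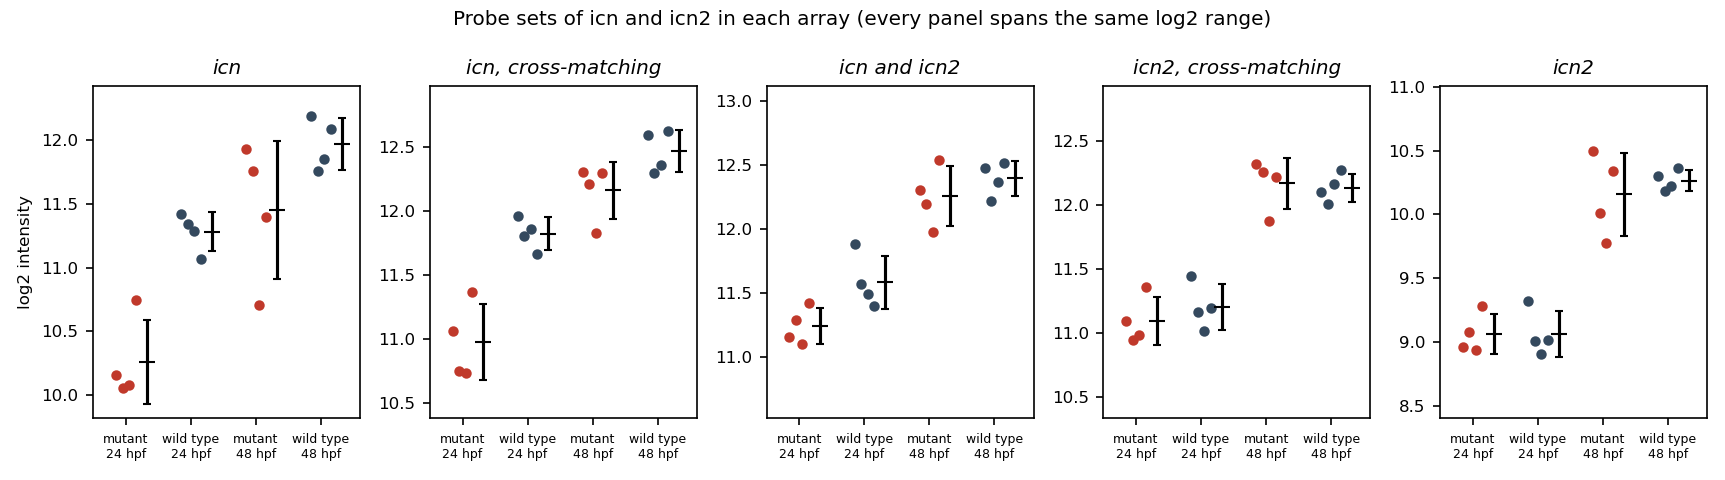
Log2 intensity in each array of the 2 probe sets of icn, the probe set annotated to icn and icn2 together, and the 2 probe sets of icn2, with mutants (red) left of wild types (dark blue) at each age and bars for mean and SD. At 24 hpf the mutant arrays lie below the wild type arrays for both icn probe sets, while those of icn2 overlap.

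The adjacent gene icn2 is a close relative of icn. The probe set annotated to both genes changed by -0.34 at 24 hpf and -0.14 at 48 hpf, and neither value passed limma's test (adjusted p of 0.124 and 0.533). The icn2 probe sets changed by -0.11 and 0.00 at 24 hpf and by 0.04 and -0.11 at 48 hpf, with no call. The brighter icn probe set and the brighter icn2 probe set are of the class whose probes can match other transcripts, so signal may be shared between the genes. Of 9 S100 genes other than icn, with icn2 counted among them, 2 were higher and 1 lower in mutants at 24 hpf by limma, and 3 were higher and 0 lower at 48 hpf. Over all probe sets the shares were 3.26% higher and 4.09% lower at 24 hpf, and 8.76% and 6.81% at 48 hpf. The median log2 change of these 9 genes was 0.36 at 24 hpf and 0.33 at 48 hpf, beside 0.00 and 0.03 over all probe sets. The calls at 24 hpf, of s100v1, s100v2 and s100a10b, were each lost without any of 5 or 6 single arrays. At 48 hpf s100b read 5.86, 5.49, 5.33 and 6.66 in mutants, against 3.54, 3.32, 3.45 and 3.88 in wild types, where it was below the background median (2.29 ± 0.22, limma adjusted p = 1.6e-06). Also higher at 48 hpf were s100z (1.11 ± 0.18, limma adjusted p = 0.00048) and s100v1 (0.63 ± 0.11, adjusted p = 0.000569).

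The genes whose levels followed icn most closely over the 16 arrays were atp1a1a.2 (Pearson r = 0.959) and atp1b1b (r = 0.947), subunits of the sodium pump. Of 13 ionocyte genes, 1 was higher and 3 lower in mutants at 24 hpf by limma, and 2 were higher and 1 lower at 48 hpf. Beside them, 3.26% of all probe sets were called higher and 4.09% lower at 24 hpf, and 8.76% and 6.81% at 48 hpf. Of the 13, the lower genes at 24 hpf included atp1b1b (-1.49 ± 0.18, limma adjusted p = 0.000109) and the carbonic anhydrase gene ca2 (-1.2 ± 0.14, adjusted p = 4.75e-05). The last of these 3 was foxi1 (-0.88 ± 0.12, limma adjusted p = 0.000255). At 48 hpf ca2 was lower by limma (-1.83 ± 0.14, adjusted p = 1.03e-07). Higher by limma were rhbg at 24 hpf (0.53 ± 0.13, adjusted p = 0.0242), and at 48 hpf atp6v1ba (0.474 ± 0.105, adjusted p = 0.00496) and atp6v1e1b (0.380 ± 0.115, adjusted p = 0.032). The calls of rhbg and atp6v1e1b were lost without any of 6 and 5 single arrays. The median log2 change of the 13 genes was -0.02 at 24 hpf and 0.02 at 48 hpf. The summed intensity of the 13 genes was 2763 to 2960 in mutants and 2910 to 3367 in wild types at 24 hpf, and 3076 to 3797 in mutants and 3200 to 3530 in wild types at 48 hpf. The part of ionocyte content in the icn values was not tested.

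For the other genes the closest levels over the 16 arrays were those of nr2f1b (r = 0.956) and smo (0.934) for krt5, and of fam107b (0.899) and lman1 (0.888) for krt18a.1. They were and3 (0.974) and cpa5 (0.974) for krt15, c9 (0.969) and gstt1a (0.967) for krt94, and tdgf1 (0.976) and wu:fc23c09 (0.961) for krt99. They were myl6 (0.961) and nos1 (0.960) for krt1-19d, and si:rp71-77l1.1 (0.962) and rgcc (0.953) for agr2. These correlations hold the shared effects of age and genotype and are a description.

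The shares of all probe sets called, for the lists in this paragraph, were 3.26% higher and 4.09% lower at 24 hpf, and 8.76% and 6.81% at 48 hpf. Among 38 other genes of epidermal adhesion, the envelope and their regulators, 2 were higher and 0 lower in mutants at 24 hpf by limma, and 5 were higher and 1 lower at 48 hpf. Their median log2 changes were 0.03 and 0.15, beside 0.00 and 0.03 over all probe sets. The transglutaminase gene tgm1l4 read 8.04, 8.10, 7.57 and 7.16 in 48 hpf mutants, against 6.27, 6.50, 6.62 and 6.53 in wild types (1.24 ± 0.18, limma adjusted p = 0.000142). The claudin gene cldne was higher at 48 hpf (0.65 ± 0.12, limma adjusted p = 0.00155), and tgm2b was lower (-0.88 ± 0.18, adjusted p = 0.00255). The 48 hpf values of cldne were 4.33 to 4.45 in wild types, below the background median, and 4.79 to 5.15 in mutants. Of 24 annexins, galectins and actin-binding genes, 4 were higher and 1 lower at 24 hpf, and 8 were higher and 1 lower at 48 hpf. The median log2 change of the 24 was 0.14 at each age. The smallest adjusted p of the list at 24 hpf was that of capgb (1.23 ± 0.20, limma adjusted p = 0.00113). Its groups did not overlap at 24 hpf but did at 48 hpf. The 24 hpf calls of anxa11b, anxa4 and anxa5b were lost without any of 5, 3 and 2 single arrays, and that of anxa4 at 48 hpf without any of 4. The dimmer probe set of anxa4 changed in the opposite direction at 48 hpf (-0.37 ± 0.21, limma adjusted p = 0.273). The annexin gene anxa5b (0.81 ± 0.13, limma adjusted p = 0.00028), the galectin gene lgals2b (1.15 ± 0.22, adjusted p = 0.00193) and the gelsolin gene gsnb (0.52 ± 0.11, adjusted p = 0.00278) were among those higher at 48 hpf. Of 13 other intermediate filament genes, 0 were higher and 1 lower at 24 hpf, and 1 was higher and 3 lower at 48 hpf, among them vim, the gene of the mesenchymal filament protein vimentin (-0.73 ± 0.16, limma adjusted p = 0.00466), the neuronal filament gene inab (-0.91 ± 0.16, adjusted p = 0.000862) and the lens filament gene bfsp2 (-1.21 ± 0.15, adjusted p = 2.83e-05).

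Some markers of other tissues also differed between genotypes, in lists chosen with earlier results of these data known. Among all probe sets 3.26% were called higher and 4.09% lower at 24 hpf, and 8.76% and 6.81% at 48 hpf. Of 6 fin fold genes, 0 were higher and 2 lower in mutants at 24 hpf, and 0 higher and 5 lower at 48 hpf. Their summed intensity at 48 hpf was 888 to 2204 in mutants and 3877 to 5216 in wild types. The fin fold gene and3, which encodes an actinotrichia protein, was one of the genes whose levels were closest to krt15 (r = 0.974), and the part of fin fold content in the krt15 values was not tested. Of 7 red blood cell genes, 1 was lower at 24 hpf and 5 at 48 hpf, with summed intensity of 13535 to 20701 in mutants and 23506 to 26799 in wild types at 48 hpf. Of 3 lens genes, 2 were lower in mutants at 24 hpf and 3 at 48 hpf. Of 2 hatching gland genes, cd63 was higher at 24 and 48 hpf (0.47 and 0.46, limma adjusted p of 0.00274 and 0.00149). The other, klf17, changed in the opposite direction without a call (-0.66 and -0.56, limma adjusted p of 0.067 and 0.0869). Of 10 neuron genes 1 was higher at 24 hpf, and 1 higher and 1 lower at 48 hpf. Of 10 liver and gut genes 1 was lower at 24 hpf, and 1 higher and 1 lower at 48 hpf, while 0 of 11 skeletal muscle genes and 0 of 7 notochord genes were called at either age. The muscle genes had median log2 changes of -0.55 at 24 hpf and -0.35 at 48 hpf. At 24 hpf their summed intensity overlapped, at 12475 to 34830 in mutants and 13149 to 34146 in wild types. Their summed intensity at 48 hpf was 72156 to 108590 in mutants and 108168 to 115609 in wild types. The notochord genes include krt8 and krt18b, which are also among the 9 further keratins.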

How the data were processed

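Biotin-labelled RNA from pooled embryos was hybridized to Affymetrix zebrafish genome arrays, per the labels' protocols. The deposited table holds linear intensities that the authors had already normalized. The submitters' processing notes name GCOS, RMA and affy, with settings and versions not given in the sources used. Log2 was taken with no offset, although a log2 scale had been assumed when the tests were laid out. Of 15617 probe sets, 115 controls were left out. Median intensity per array was 45.5 to 48.1, with 0 missing values. The number of arrays limits the precision, and no batch label was given in the sources used.

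Group means (4 groups, 16 arrays) were fitted with limma 3.58.1 in R 4.3.3 and eBayes (12 residual degrees of freedom), tested on simulated data. P-values were two-sided and adjusted by Benjamini-Hochberg over 15502 probe sets. A gene took the probe set with the highest mean. Symbols came from the platform annotation (10795 probe sets with 1 symbol, 135 with several, 4572 with none), and 10711 were found in RefSeq, assembly GRCz12tu, used for names and gene order only. The members, and the 7 pathway and 8 marker lists, were chosen with earlier results of these data known. Named were every member, every keratin past the threshold, up to 4 genes of each other list per comparison by smallest adjusted p, and the 2 genes closest to each member by Pearson correlation; neighbouring keratins were named after their values were seen. Alternatives changed the scaling, offset, dim filter, variance model, arrays fitted, probe set rule and replicate block, or left out arrays.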

Additional observations from a re-analysis of the deposited data

Results flagged for a closer look

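In 12 of 180 groups of 4 arrays the highest or lowest array stood apart by Dixon's criterion, which chance gives for about 1 in 20 groups. Among the members, krt18a.1 read 11.24 in mutant replicate 4 at 48 hpf (others 11.03 to 11.05), krt1-19d read 8.86 in mutant replicate 2 at 24 hpf (others 8.64 to 8.67), and the dimmer icn probe set read 10.75 in mutant replicate 4 at 24 hpf (others 10.06 to 10.16). Among 24 hpf mutants, krt97 read 10.86 in replicate 1 (others 10.43 to 10.45) and lgals2b 6.18 in replicate 2 (others 6.56 to 6.64). Among 48 hpf mutants, gsnb read 9.79 (others 9.94 to 9.96) and s100v2 9.20 (others 9.56 to 9.59) in replicate 3, and kdelr2b 9.41 in replicate 2 (others 9.56 to 9.59). Among 48 hpf wild types, edem1 read 5.28 (others 5.62 to 5.69) and ca2 9.05 (others 9.40 to 9.44) in replicate 3, and rhbg 4.37 in replicate 4 (others 4.01 to 4.07). In 24 hpf wild types inab read 5.75 in replicate 1 (others 6.02 to 6.06).

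The genotype difference was not the same at the 2 ages for several genes. For krt15 it was -0.29 at 24 hpf and -1.52 at 48 hpf (difference -1.22), and for krt1-19d 0.07 and 1.28 (1.21), with 0.20 and 1.63 (1.43) on its other probe set; these members were chosen with such values known. By limma's interaction test it differed for s100b (0.55 and 2.29, difference 1.74, adjusted p = 0.00763), muc5.1 (-0.18 and -1.40, difference -1.21, adjusted p = 0.000562), atp1b1b (-1.49 and -0.30, difference 1.19, adjusted p = 0.0275), foxi1 (-0.88 and 0.16, difference 1.04, adjusted p = 0.00403) and bfsp2 (0.16 and -1.21, difference -1.38, adjusted p = 0.00263). At 24 hpf s100b read below the background median (4.66) in every array. The dimmer muc5.1 probe set had 24 hpf means of 3.72 in mutants and 3.89 in wild types, also below that median. Every 24 hpf array of krt15 lay within the range of the foreign sequences (2.77 to 7.22), where changes may be understated.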

How the results depend on the processing

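No log2 change of a member turned direction when called or moved beyond the replicate SD under the alternatives run (18 settings for each genotype comparison, 25 for age); at 24 hpf krt1-19d ranged from -0.08 to 0.30, and krt99 from 0.31 to 1.102, and at 48 hpf krt99 ranged from -0.18 to 0.01. The count of members higher at 24 hpf, 1 as reported, was 0 with cyclic loess, with only the arrays of that age, with the replicate block and without the 3 arrays least like their groups, and 0 to 2 when single arrays were left out. The count of members whose genotype difference was higher at 48 than at 24 hpf, 1 as reported, was 0 with log2(value + 16) and 0 to 1 without single arrays, with 0 in 11 of 16 such fits. The count lower at 48 hpf, 4 as reported, was 3 in 7 of 8 such fits. The count of other keratins called at 48 hpf, 2 as reported, was 1 with centred arrays, with log2(value + 16) and with only the arrays of that age, and 1 to 2 without single arrays; krt17 was the call lost (adjusted p of 0.0611, 0.0671 and 0.0711). Probe sets called numbered 1139 at 24 hpf (646 to 1192 without single arrays) and 225 for the change of the genotype difference (125 to 231). Without the 3 arrays, an alternative chosen after seeing the data, 1889 were called at 24 hpf and 2 members had a lower genotype difference at 48 than at 24 hpf. With the mean of a gene's probe sets anxa4 read -0.01 at 48 hpf, where its probe sets changed in opposite directions. The cause of the other changes was not tested. To look for pairing, the group mean of each probe set was first subtracted, and the remaining deviations were correlated between arrays. The deviations of same-numbered mutant and wild type arrays correlated by -0.307 to 0.426 at 24 hpf and -0.155 to 0.046 at 48 hpf. By these deviations, 3 of 4 arrays at 24 hpf and 0 at 48 hpf correlated best with their own number. Between the ages this held for 3 of 4 mutant arrays and 1 of 4 wild type arrays. The labels give no shared source, so the pools were not treated as paired, and a shared effect of replicate number was not excluded. With the replicate block 1360 probe sets were called at 24 hpf, 2691 at 48 hpf and 286 for the change between them. Values within the range of the foreign sequences (2.77 to 7.22) may understate changes.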
